A study of Homo sapiens with 12 samples.

Results

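Ephrins and Eph receptors were followed in MDA-MB-231 cells, a triple-negative breast cancer line, cultured in Matrigel with and without Paclitaxel, a drug that stabilizes microtubules. The members were 10 genes chosen by name, found through their Ensembl identifiers among the 63568 genes of the count table: the receptors EPHA2, EPHA4, EPHB2, EPHB3 and EPHB4 and the ligands EFNA1, EFNA4, EFNA5, EFNB1 and EFNB2. There were 12 RNA-seq libraries from 6 conditions with 2 biological replicates each. C1 was untreated and taken on day 2, C2 was untreated and taken on day 4, and the 4 treated conditions received 0.0005, 0.005, 0.05 or 0.5 μM Paclitaxel on day 2 and were taken on day 4. All groups were the same line, labelled as genotype WT, and carried nuclear GFP through a transfected histone, so that every value describes 1 cell line outside an organism, without fibroblasts, vessels or immune cells. The labels put the drug on day 2, while the study's imaging methods name a later day, so the time of exposure is uncertain. The drug was compared with C2 on the same day, while C1 differed from the treated cultures in both time and drug.

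Eph receptors form the largest family of receptor tyrosine kinases, and both they and their ephrin ligands sit on cell membranes, so that signalling starts where cells touch. A-type ephrins are held by a lipid anchor and mostly bind EphA receptors, whereas B-type ephrins span the membrane and mostly bind EphB receptors, with EPHA4 binding both types. Binding sends a forward signal into the receptor cell and a reverse signal into the ligand cell, and through the actin cytoskeleton it often makes touching cells retract, the contact repulsion that guides axons and keeps cell groups apart. In breast cancer cells EPHA2 is the best known member, and EFNA1 is its main ligand.

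The libraries held 38380629 to 79169121 counts in exons, with a median of 65977095.5, and the smallest member count in any library was 32, for EPHB3. Levels are given as CPM, the counts of a gene scaled to the size of the library. Genes high in this line were high in all 12 libraries (VIM, 797 to 1366 CPM), and ESR1 and PGR stayed at or below 0.460 and 0.0867 CPM. ERBB2 was at 26.6 to 52.4 CPM and EPCAM at 4.37 to 6.77 CPM. Summed markers of fibroblasts (6 of 6 genes found) ran from 8.62 to 18.3 CPM, nearly all from COL1A1 and PDGFRB, and those of endothelial cells (4 of 5 found) from 0.626 to 3.24 CPM. The libraries of C1 had the largest and the smallest total of the series and differed from each other more than those of any other condition, with a chi-square per degree of freedom of their counts of 254 against 7.07 to 42.5.

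All 10 members passed the filter on low counts and were tested. These are RNA levels of whole cultures, in which fewer cells that carry a transcript and less of it per cell cannot be told apart. To compare genes, CPM was divided by the merged exon length of each gene (CPM per kb). EPHA2 dominated the receptors: it made up 82.6% to 87.6% of the summed CPM per kb of the 14 Eph receptor genes, with a median of 84.1%. EPHB4 followed with a median share of 5.42%, EPHA3, which is not a member, with 5.40%, EPHA4 with 1.74%, EPHB2 with 1.67% and EPHB3 with 0.749%. Among the 8 ephrin genes no ligand was so far ahead. EFNA1 had the highest median share at 48.0%, followed by EFNB2 at 14.0%, EFNA5 at 11.9%, EFNA4 at 11.1% and EFNB1 at 9.31%. The EFNA1 share was the one that moved most, from a mean of 27.6% of the ligands in C1 to 49.8% in C2 and 55.4% at 0.0005 μM, and down to 45.8% at 0.5 μM.

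**Figure D1:**
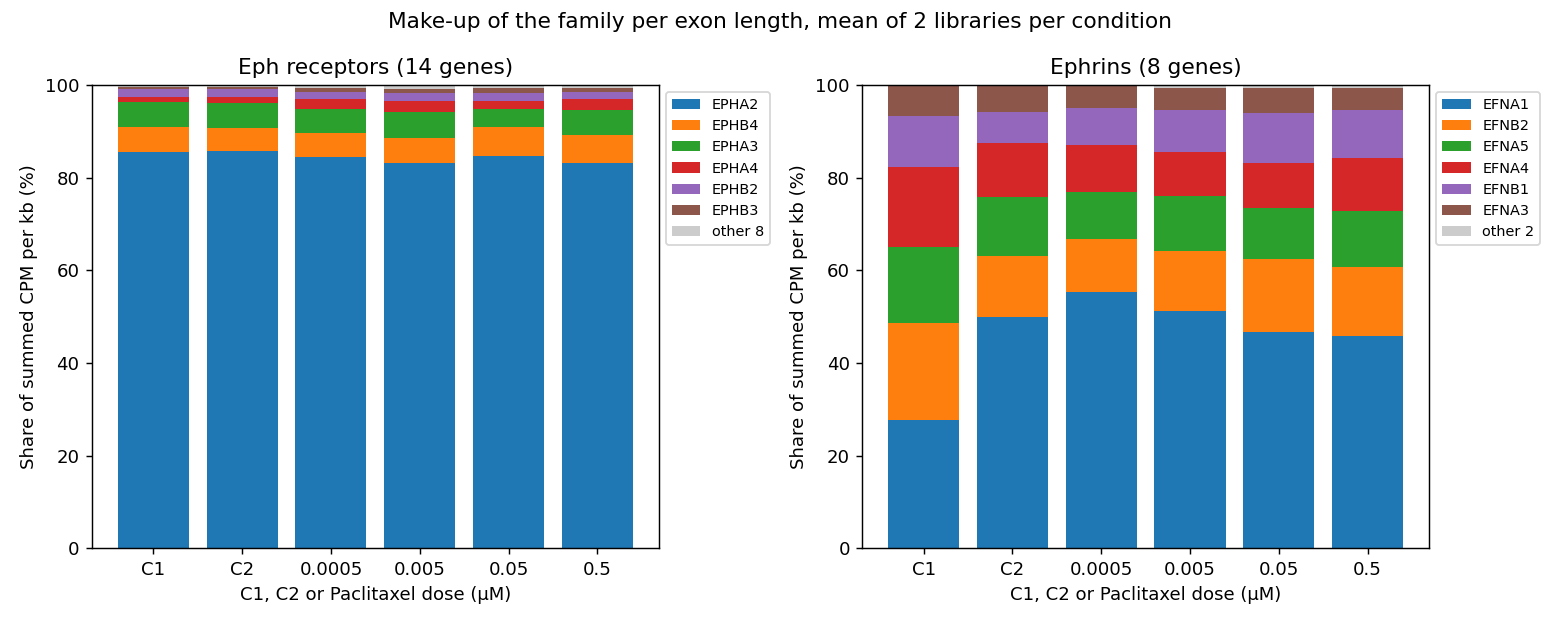
Share of each gene in the summed CPM per kb of the 14 Eph receptor genes (left) and the 8 ephrin genes (right), in percent, as the mean of 2 libraries in C1, C2 and each Paclitaxel dose (μM). EPHA2 fills over 80% of the receptor bar in every condition, while the EFNA1 part of the ligand bar is smallest in C1 (27.6%) and largest at 0.0005 μM (55.4%).

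EFNA1 (ENSG00000169242, chr1:155100352-155107375 on the forward strand of GRCh37) lies downstream of EFNA4 and EFNA3 in a cluster of A-type ephrins, and EPHA2 (ENSG00000142627, chr1:16450832-16482564, reverse strand) lies on the same chromosome far from it. The 250 bases upstream of both start sites are shown because EFNA1 was the member whose level changed most and EPHA2 the receptor with most reads. The sequences are those of RefSeq's promoter table of GRCh38.p14, and each matched GRCh37 exactly once, at chr1:155100102-155100351 for EFNA1 and at chr1:16482565-16482814 for EPHA2. Both read 5′ to 3′ toward the start site, and capitals mark GC boxes (GGGCGG on either strand, overlaps counted).
EFNA1: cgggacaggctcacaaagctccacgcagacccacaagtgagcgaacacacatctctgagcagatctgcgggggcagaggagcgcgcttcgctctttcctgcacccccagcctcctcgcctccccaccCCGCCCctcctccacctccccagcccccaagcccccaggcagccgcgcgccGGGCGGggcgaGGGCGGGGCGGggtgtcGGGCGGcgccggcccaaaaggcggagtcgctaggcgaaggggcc
EPHA2: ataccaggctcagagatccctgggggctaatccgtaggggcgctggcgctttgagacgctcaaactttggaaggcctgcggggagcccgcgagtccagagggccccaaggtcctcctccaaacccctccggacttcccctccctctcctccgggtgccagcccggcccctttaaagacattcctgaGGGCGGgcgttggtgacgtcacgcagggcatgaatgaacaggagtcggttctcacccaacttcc
The EFNA1 window held 5 GC boxes, of which a pair overlaps, at a GC content of 73.2%, and the EPHA2 window held 1 at 63.2%. Neither held a TATA box (TATAAA) or an AP-1 site (TGANTCA) on either strand. Among 35116 promoters of the table searched over the same 250 bases, 42.6% held a GC box, 10.7% a TATA box and 6.57% an AP-1 site. These matches describe the letters of the window and were not tied to any level.

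EFNA1 was higher in untreated cells on day 4 than on day 2 and fell with Paclitaxel dose among the treated cultures. Its levels in replicates 1 and 2 were 15.0 and 20.3 CPM in C1 and 54.3 and 45.4 CPM in C2. At 0.0005 μM they were 68.5 and 58.4 CPM, and at 0.005 μM 46.9 and 45.3 CPM. Both C1 libraries lay below every other library, and both libraries of the lowest dose lay above every other one. At 0.05 μM the levels were 40.8 and 41.9 CPM, and at 0.5 μM 36.0 and 35.1 CPM. Each 10-fold step in dose thus gave a lower level with no overlap between the libraries of neighbouring doses, which EFNA1 alone of the 10 members showed and which 0.749% of the 25249 genes tested showed. Ordered by their means (± SD, n = 2 each), the conditions ran from 0.0005 μM (63.4 ± 7.11 CPM) through C2 (49.8 ± 6.26), 0.005 μM (46.1 ± 1.13), 0.05 μM (41.4 ± 0.750) and 0.5 μM (35.6 ± 0.668) to C1 (17.6 ± 3.77). Of the 5 neighbours in this order only C2 and 0.005 μM overlapped.

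**Figure D2:**
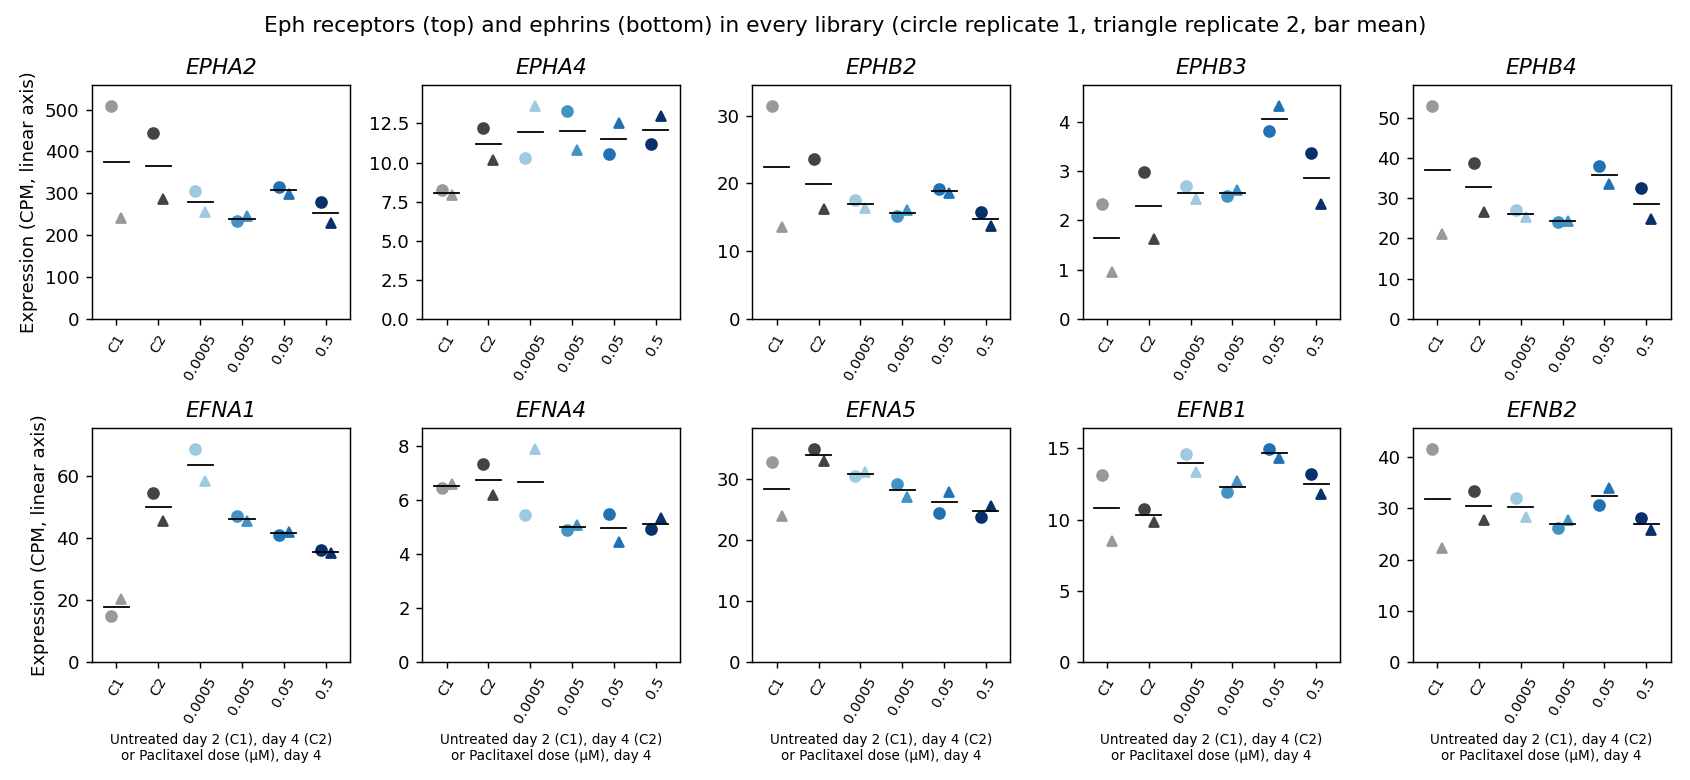
Level of each member in CPM (linear axes from 0, scaled per gene) in both libraries of C1, C2 and the 4 Paclitaxel doses (μM), with receptors in the top row and ligands in the bottom row. Circles are replicate 1, triangles replicate 2 and bars the mean, with EFNA1 lowest in C1 (15.0 and 20.3 CPM) and stepping down from 0.0005 to 0.5 μM, and EPHA2 widely split between the replicates of C1 (508 and 240 CPM).

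Between C1 and C2 the EFNA1 level changed by 1.50 ± 0.168 on the log2 scale (SE), a gene called at an edgeR adjusted p of 0.00205, where 0.325% of all genes were called. It ranked 13 of 25249 by p, and 24 of the 12262 genes with a mean of at least 5 CPM rose more. Fitted on the 4 untreated libraries alone the log2 change was 1.49, but the edgeR adjusted p was 0.808. That fit called 0 of 20926 genes, so that the EFNA1 call rests on the spread estimated over all 12 libraries. Among the 8 treated libraries the slope of EFNA1 was -0.27 ± 0.0379 log2 units per 10-fold dose (edgeR adjusted p = 0.00135), beside 3.06% of genes called and 2.04% called lower. The slope rested in part on the lowest dose: without both of its libraries it was -0.19, with an edgeR adjusted p of 0.437. In that smaller fit 0.123% of all genes were called, so that the lost call is not particular to EFNA1. From 0.0005 to 0.5 μM the log2 change was -0.84 ± 0.164 (edgeR adjusted p = 0.0596, with 0.412% of genes called), so that the ends of the dose range did not differ past the threshold in a direct comparison.

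Against C2 none of the 4 doses moved EFNA1 past the threshold. The log2 difference was 0.35 ± 0.163 at 0.0005 μM and -0.11 ± 0.163 at 0.005 μM (edgeR adjusted p = 0.304 and 0.737). It was -0.27 ± 0.163 at 0.05 μM and -0.49 ± 0.164 at 0.5 μM (edgeR adjusted p = 0.360 and 0.101). The level was thus above C2 at the lowest dose and below it at both higher doses with no overlap of libraries. None of these differences passed the threshold after adjustment, although the unadjusted edgeR p at 0.5 μM was 0.0114. Without either C1 library the difference at 0.5 μM was called (the lowest edgeR adjusted p was 0.00630). Without replicate 1 of C2 the 4 differences were 0.48, 0.019, -0.14 and -0.36 with rising dose, and without replicate 2 they were 0.22, -0.25, -0.40 and -0.62, none called. With offsets for GC content and gene length EFNA1 was called lower than C2 at 0.05 and 0.5 μM, at -0.52 and -0.74 (edgeR adjusted p = 0.0412 and 0.0101), and in the 4 libraries alone at 0.5 μM, at -0.47 (edgeR adjusted p = 0.0361). The direction of any difference between treated and untreated cultures depended on the day of the control: it was 0.46 ± 0.272 with both days as the control (edgeR adjusted p = 0.225) and -0.13 with C2 alone.

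Within 100 kb of EFNA1 18 genes were tested, and EFNA1 was the one called between C1 and C2, whereas 1 other gene was called for the slope. Its cluster neighbours EFNA4 and EFNA3 were called in neither comparison, although EFNA3 had a log2 change of 0.37 ± 0.178 between C1 and C2 and a slope of -0.15 ± 0.0551 (edgeR adjusted p = 0.509 and 0.148). The gap between EFNA3 and EFNA1 is 40337 bases and that between EFNA4 and EFNA3 9283 bases.

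By the root mean square difference of log2 CPM, centred on the mean of the 12 libraries, the 3 genes whose pattern was most like that of EFNA1 among 12261 genes were NFKBIZ (0.151), SPNS2 (0.163) and PTPRH (0.167), where EFNA1 itself deviated from its mean by 0.594. NFKBIZ, an inducible nuclear regulator of the NF-κB response, averaged 32.0 CPM in C1, 114 in C2, 131 at 0.0005 μM and 63.4 at 0.5 μM. SPNS2, a sphingosine-1-phosphate exporter, and PTPRH, a receptor-type tyrosine phosphatase, had lower levels with their lowest mean in C1 and their highest at 0.0005 μM as well. This likeness is a description of 12 libraries that share conditions and depth.

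EPHA2, the most abundant receptor, was highest in untreated cultures on average, but its untreated replicates were far apart. In C1 its levels were 508 and 240 CPM and in C2 444 and 287 CPM. The doses of 0.0005 and 0.005 μM gave 305 and 255 CPM and 233 and 246 CPM, and those of 0.05 and 0.5 μM gave 316 and 298 CPM and 280 and 228 CPM. Replicate 1 of C1 and of C2 lay above all other libraries, whereas replicate 2 of each lay within the range of the treated ones. No 2 neighbours in the order of condition means were separate. The log2 differences from C2 were -0.38 ± 0.294, -0.61 ± 0.294, -0.25 ± 0.293 and -0.52 ± 0.294 with rising dose (edgeR adjusted p = 0.536, 0.291, 0.676 and 0.315). They turned on which C2 library was used: without replicate 1 they were -0.034, -0.26, 0.096 and -0.18, and without replicate 2 -0.67, -0.90, -0.54 and -0.82, none called. Without either C1 library those at 0.005 and 0.5 μM were called (the lowest edgeR adjusted p was 0.0261 and 0.0370). The slope on dose was -0.0056 ± 0.0545 and the change from C1 to C2 -0.035 ± 0.293 (edgeR adjusted p = 0.969 and 0.977). Across all 8 treated and 4 untreated libraries the log2 difference was -0.45 ± 0.165. Its edgeR adjusted p of 0.0539 lay just above the threshold of 0.05. The difference was called in 4 of 10 alternatives. These were DESeq2 (adjusted p = 0.0346), another size factor (RLE), a term for the replicate number, and offsets for GC content and gene length. Without replicate 2 of C1, the lower of its libraries, the log2 difference was -0.59 (edgeR adjusted p = 0.00600), and without replicate 1 of C1 it was -0.27 (edgeR adjusted p = 0.275).

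The gap between replicates was shared by several receptors. In C1, replicate 1 minus replicate 2 on the log2 scale was 1.32 for EPHB4, 1.26 for EPHB3, 1.21 for EPHB2, 1.08 for EPHA2 and 0.90 for EFNB2. Over the 12262 genes with a mean of at least 5 CPM this gap ran from -0.75 at the 5th to 1.12 at the 95th percentile, and 6 of 10 members but also 23.5% of these genes were over 1.5-fold higher in replicate 1. EPHA4 (0.061), EFNA4 (-0.035) and EFNA1 (-0.44) did not share it. In C2 the gaps went the same way and were smaller, at 0.87 for EPHB3, 0.63 for EPHA2, 0.55 for EPHB4 and 0.54 for EPHB2, where the 95th percentile of all genes was 0.44. In the 0.005 μM libraries no member differed by more than 0.30. Among the genes most like EPHA2 over the 12 libraries, by the same measure, were ACTN4 (0.0707), which encodes an actin cross-linker, and PTCH1 (0.0724), the Hedgehog receptor, where EPHA2 itself deviated from its mean by 0.346. The part that this gap has in any difference of these receptors from the treated libraries was not tested beyond leaving out each library.

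**Figure D3:**
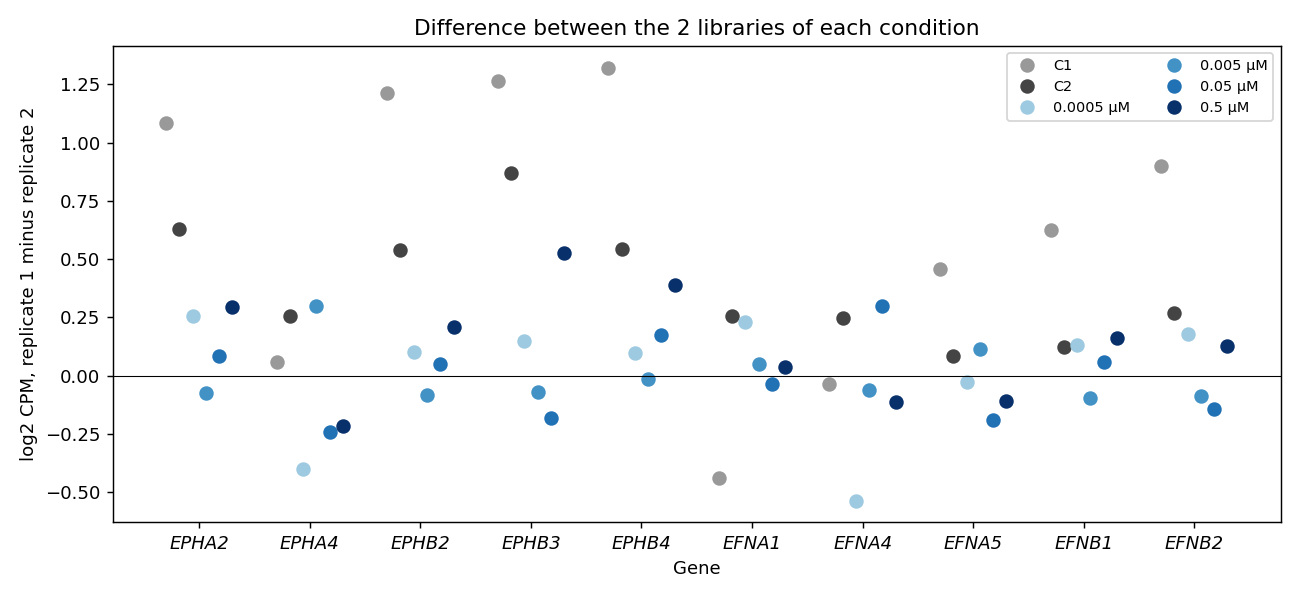
Log2 CPM of replicate 1 minus replicate 2 for each member (x axis) in each of the 6 conditions (colours). The C1 points of EPHA2, EPHB2, EPHB3 and EPHB4 lie between 1.08 and 1.32, above those of every other condition, while EFNA1 is below 0 in C1 (-0.44).

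The balance of a ligand to its receptor within a library does not depend on library scaling, and 2 pairs were compared. Averaged over the percentages of both libraries, the CPM of EFNA1 was 5.70% of that of EPHA2 in C1 and 14.0% in C2, and with rising dose it was 22.7%, 19.3%, 13.5% and 14.1%. The log2 ratio was -2.56 ± 0.344 in the treated libraries (SD, n = 8) and -3.58 ± 1.07 in the untreated libraries (SD, n = 4), a difference of 1.02 (exact permutation test over 495 splits, two-sided, p = 0.0162, adjusted over the 2 pairs 0.0323). That difference came with the day 2 cultures in the control: against C2 alone it was 0.28 (exact permutation test, p = 0.311), and without replicate 1 of C1 it was 0.52 (exact permutation test, p = 0.0788). EFNB2 and EPHB4, a ligand and receptor known from the separation of arteries and veins, were at nearly equal CPM, with EFNB2 at 91.0% to 116% of EPHB4 over the conditions when the percentages of both libraries are averaged. Their log2 ratio differed by 0.14 between treated and untreated libraries (exact permutation test over 495 splits, two-sided, p = 0.242, adjusted 0.242), less than the spread within the groups (SD 0.194 and 0.209).

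**Figure D4:**
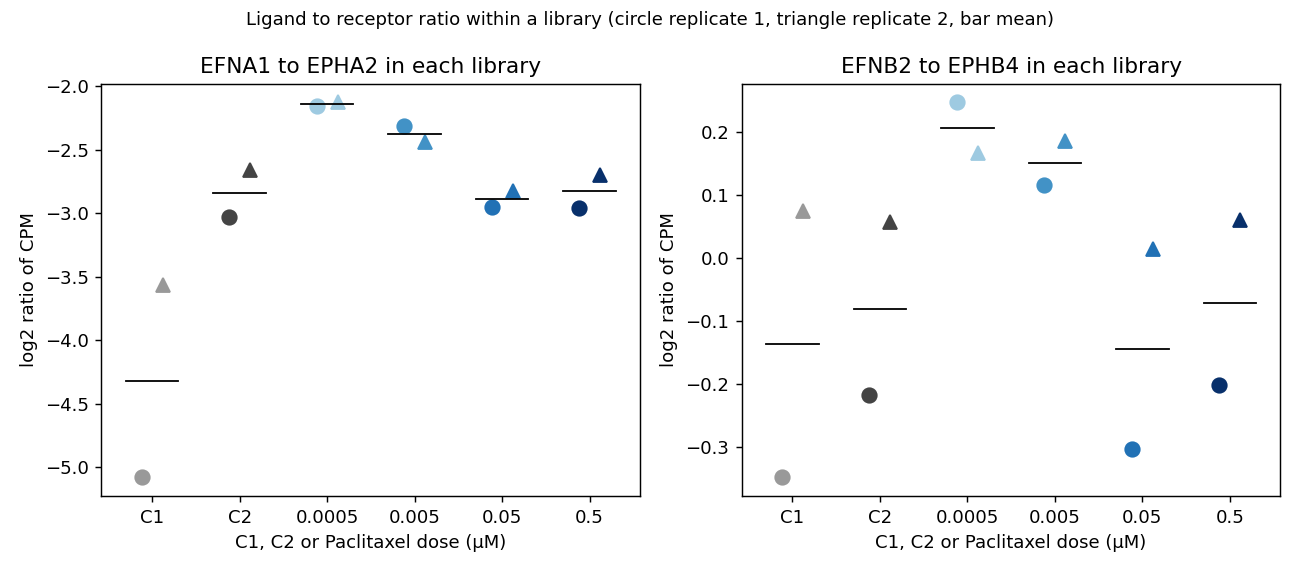
Log2 ratio of ligand to receptor CPM in each library, for EFNA1 to EPHA2 (left) and EFNB2 to EPHB4 (right), by condition, with circles for replicate 1, triangles for replicate 2 and bars for the mean. The left ratio is lowest in C1 (mean -4.32) and highest at 0.0005 μM (mean -2.14), with C2 at -2.84. The right ratio stays between -0.348 and 0.248, and treated and untreated libraries overlap. Its libraries at the 2 lowest doses (0.116 or more) lie above all others (0.0752 or less).

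None of the 4 other receptors was called in any comparison. Their highest condition mean exceeded the lowest by 1.50-fold (EPHA4), 1.52-fold (EPHB2), 1.53-fold (EPHB4) and 2.47-fold (EPHB3). EPHA4 (ENSG00000116106, chr2:222282747-222438922, reverse strand), which binds ephrins of both types, was at 8.25 and 7.90 CPM in C1 and between 10.2 and 13.6 CPM in all 10 libraries of day 4. Its C1 libraries were thus the lowest of the series, with a log2 change to C2 of 0.47 ± 0.187 that was not called (edgeR adjusted p = 0.454), and the doses differed from C2 by 0.043 to 0.11. EPHB2 (ENSG00000133216, chr1:23037332-23247993, forward strand), a receptor known for sorting cells in the gut crypt and in axon guidance, ran from 13.5 to 31.4 CPM, with both extremes in C1. EPHB4 (ENSG00000196411, chr7:100400187-100425145, reverse strand), the receptor of EFNB2 on veins, ran from 21.1 to 52.9 CPM, again with both extremes in C1. For neither gene did any dose, the slope or the days differ past the threshold, with log2 differences from C2 of -0.43 to -0.073 for EPHB2 and -0.43 to 0.13 for EPHB4.

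EPHB3 (ENSG00000182580, chr3:184279573-184300196, forward strand), a receptor related to EPHB2, was the least abundant member. It was at 2.33 and 0.955 CPM in C1 and at 2.98 and 1.62 CPM in C2. The doses of 0.0005 and 0.005 μM gave 2.7 and 2.43 CPM and 2.49 and 2.61 CPM, and those of 0.05 and 0.5 μM gave 3.81 and 4.32 CPM and 3.38 and 2.34 CPM. The libraries of 0.05 μM lay above all others, at a log2 difference from C2 of 0.82 ± 0.346 (edgeR adjusted p = 0.176). This difference was called without either C1 library and in the 4 libraries compared alone. It was 1.32 without replicate 1 of C2 and 0.44 without replicate 2 (edgeR adjusted p = 0.153 and 0.584).

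Among the B-type ligands, EFNB1 (ENSG00000090776, chrX:68048864-68062003, forward strand), whose loss causes craniofrontonasal syndrome, was higher in treated cultures. Its levels were 13.2 and 8.53 CPM in C1 and 10.7 and 9.86 CPM in C2. The treated libraries ran from 11.8 to 14.9 CPM. All 8 treated libraries exceeded both C2 libraries and replicate 2 of C1, whereas replicate 1 of C1 lay within their range. The log2 difference of treated from untreated libraries was 0.33 ± 0.116, called at an edgeR adjusted p of 0.0434, where 24.4% of all genes were called and 13.1% called higher. The call is marginal: it was lost with another size factor (RLE, edgeR adjusted p = 0.0518), without a count filter (edgeR adjusted p = 0.0724), with offsets for GC content and gene length (0.19, edgeR adjusted p = 0.182), with C2 as the control in the model of 6 conditions (edgeR adjusted p = 0.144), and when replicate 2 of C1, either replicate of C2 or of 0.05 μM, replicate 1 of 0.0005 or 0.5 μM or replicate 2 of 0.005 μM was left out (0.26 to 0.34, edgeR adjusted p of at most 0.117). Without both C1 libraries it was 0.39 and called (edgeR adjusted p = 0.0376). Against C2 the log2 differences were 0.44 ± 0.185, 0.26 ± 0.185, 0.51 ± 0.185 and 0.28 ± 0.186 with rising dose, none called (the lowest edgeR adjusted p was 0.117, at 0.05 μM). EFNB2 (ENSG00000125266, chr13:107142093-107188010, reverse strand) ran from 22.3 to 41.5 CPM, with both extremes in C1. By condition means, between 27.0 and 32.4 CPM, it was the flattest member, with no difference called. It shares 1822 of its 5005 exonic bases with a gene on the opposite strand, and as the strand setting of the counting is not given in the sources used here, reads of both cannot be told apart.

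The other A-type ligands had lower means than C2 at every dose, though no difference was called. EFNA5 (ENSG00000184349, chr5:106712595-107006638, reverse strand), a repulsive cue for growing axons, was at 32.7 and 23.8 CPM in C1 and 34.8 and 32.8 CPM in C2. At rising doses it was at 30.5 and 31.0, 29.2 and 26.9, 24.4 and 27.8, and 23.7 and 25.6 CPM. All treated libraries lay below both C2 libraries, and the means fell at each step of dose, although libraries of neighbouring doses overlapped at the upper end. The log2 difference from C2 was -0.14 ± 0.160 at the lowest and -0.46 ± 0.160 at the highest dose (edgeR adjusted p = 0.702 and 0.114), and the slope was -0.11 ± 0.0349 per 10-fold dose (edgeR adjusted p = 0.113), which DESeq2 called. EFNA4 (ENSG00000243364, chr1:155036213-155042029, forward strand) was at 6.43 and 6.59 CPM in C1 and 7.33 and 6.16 CPM in C2, and at 4.45 to 5.48 CPM in all treated libraries but replicate 2 of 0.0005 μM, which was at 7.87 CPM. Its log2 differences from C2 were -0.025, -0.44, -0.44 and -0.40 with rising dose, none called. It shares 189 exonic bases with the readthrough gene EFNA4-EFNA3, so reads there may be uncertain.

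**Figure D5:**
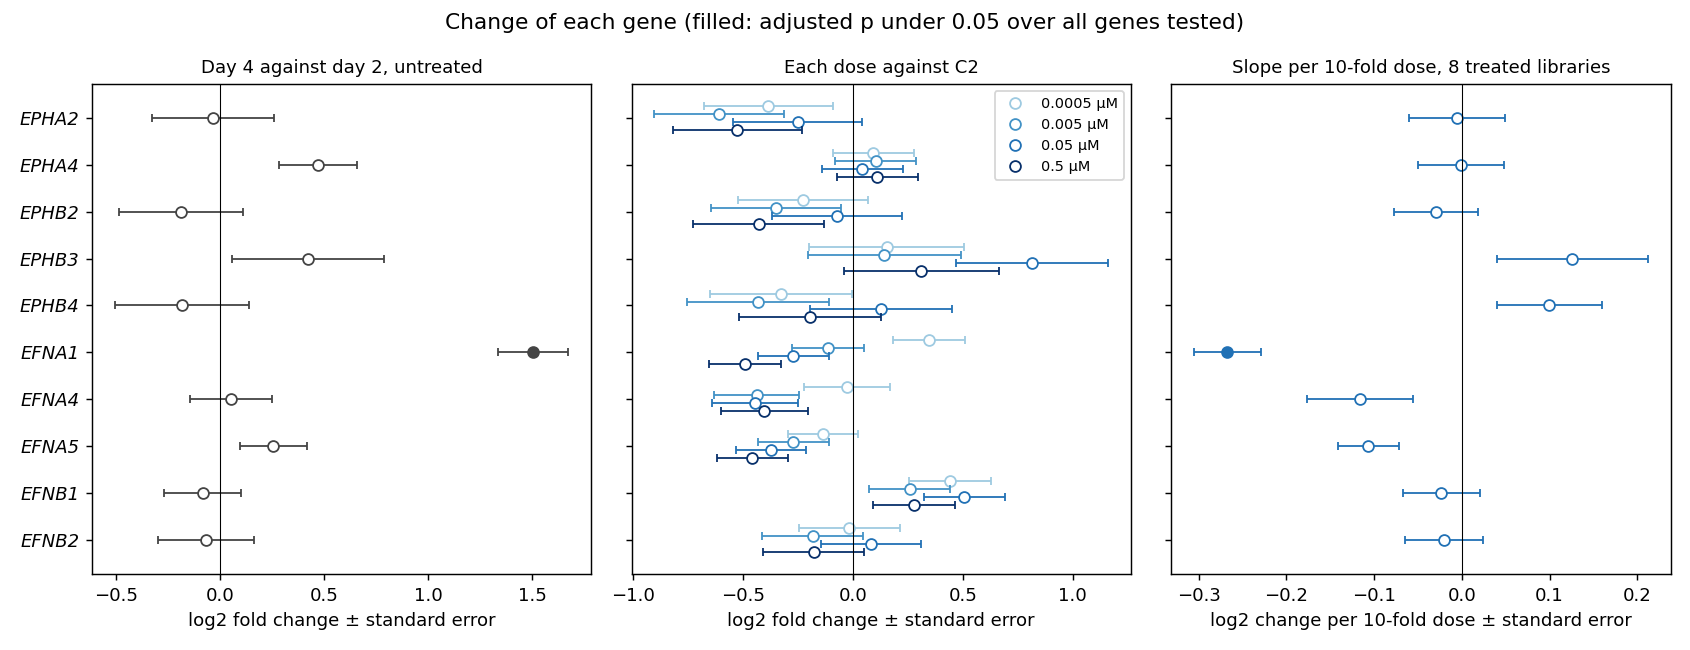
Log2 change of each member with its standard error, from C1 to C2 (left), from C2 to each Paclitaxel dose (middle, colours) and per 10-fold dose among the 8 treated libraries (right). The filled points, edgeR adjusted p under 0.05 over all 25249 genes tested, are those of EFNA1 from C1 to C2 (1.50) and for the slope (-0.27).

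Counted over the members, few changes passed the threshold. Against C2, edgeR called 0 of 10 members at each dose, where 2.34% (0.0005 μM), 3.28% (0.005 μM), 8.32% (0.05 μM) and 6.32% (0.5 μM) of all genes were called, and DESeq2 called 0 at each as well. At an unadjusted p under 0.05 there were 1, 1, 4 and 2 members with rising dose, beside 17%, 18.7%, 23.7% and 22.9% of all genes. The 4 comparisons share the C2 libraries. The libraries of C1 are on neither side of these contrasts but enter the filter, scaling and spread of the fit, and leaving out either one raised the counts to 1 (EFNB1), 1 (EPHA2), 3 (EPHB3, EFNA5 and EFNB1) and 4 (EPHA2, EPHB2, EFNA1 and EFNA5). The share of all genes called rose with them, to 9.23%, 12.4%, 18.0% and 18.5% without replicate 1 and to 9.52%, 12.1%, 18.1% and 18.8% without replicate 2. The median log2 difference over the members was -0.021, -0.23, -0.015 and -0.30, where that over all genes was -0.011, 0.036, -0.011 and 0.036. Members whose libraries did not overlap with C2 numbered 3, 6, 5 and 6 of 10, beside 53.0%, 62.1%, 52.9% and 59.0% of all genes. The share of members was below the background at 0.0005 μM and near it at the other doses.

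Between 0.5 and 0.0005 μM edgeR called 0 members, beside 0.412% of all genes. At an unadjusted p under 0.05 there was 1 member, beside 14.7% of all genes. DESeq2 was not run for this comparison. In each of the remaining comparisons 1 member was called. These were EFNA1 from C1 to C2, EFNA1 for the slope, EFNB1 in treated against untreated libraries, and EFNA1 in the test over all 6 conditions (edgeR adjusted p = 0.000574, where 11.0% of all genes were called). Without replicate 1 of C1 the calls from C1 to C2 rose to 3 (EFNA1, EPHB3 and EFNA5) and those over all conditions to 5, and without replicate 2 they were 3 (EFNA1, EPHB2 and EPHB4) and 7. Over all genes, the calls from C1 to C2 rose from 82 to 2682 and 1884 in the same fits, and the share called over all conditions to 31.0% and 33.8%. For treated against untreated libraries the count ran from 0 to 3 when 1 library was left out, where 15.6% to 26.4% of all genes were called. It was 3 (EPHA2, EPHB2 and EFNA5) without replicate 2 of C1, 2 (EPHA4 and EPHB3) without replicate 1 of C2, 2 (EFNA4 and EFNB1) without replicate 2 of 0.0005 μM, and 0 when replicate 1 of 0.0005 or 0.5 μM or replicate 2 of 0.005 or 0.05 μM was left out.

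Of the 12 family genes outside the members, 10 passed the filter, and EPHA6 and EPHA8 did not. EPHA3 was as abundant as the middle members, at 20.1 to 36.6 CPM, and it was lower in treated than in untreated libraries by a log2 difference of -0.39 ± 0.0984 (edgeR adjusted p = 0.00922). It was also called against C2 at 0.05 μM, at -0.63 ± 0.153 (edgeR adjusted p = 0.0265), as was EPHA7, at -0.95 ± 0.214 (edgeR adjusted p = 0.0198). EPHA7, at 1.29 to 3.01 CPM, was lower in treated libraries by -0.66 ± 0.139 (edgeR adjusted p = 0.00291). EPHB6, a receptor without kinase activity, was higher by 0.72 ± 0.195 (edgeR adjusted p = 0.0127) at 0.515 to 1.36 CPM, and was called against C2 at 0.005 and 0.05 μM, at 1.12 ± 0.275 and 1.07 ± 0.277 (edgeR adjusted p = 0.0476 and 0.0349). EFNA2 and EFNB3 were higher by 2.35 ± 0.520 and 2.38 ± 0.486 (edgeR adjusted p = 0.00383 and 0.00225), but at most 44 and 29 reads were counted for them in any library, and EPHB1, lower by -1.16 ± 0.388 (edgeR adjusted p = 0.0372), had at most 16. Against C2, EFNA2 was called at 0.005, 0.05 and 0.5 μM (3.01 ± 0.737, 3.30 ± 0.728 and 2.81 ± 0.765, edgeR adjusted p = 0.0475, 0.0179 and 0.0498) and EFNB3 at 0.05 and 0.5 μM (2.03 ± 0.513 and 2.01 ± 0.521, edgeR adjusted p = 0.0312 and 0.0420).

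The genes through which Eph signals are cut off, passed on or carried to the cytoskeleton were taken from a list of 53, of which 52 were tested. Against C2, edgeR called 0, 1, 4 and 2 of them with rising dose, or 0%, 1.92%, 7.69% and 3.85% beside 2.34%, 3.28%, 8.32% and 6.32% of all genes. Of these calls 1 was higher, at 0.05 μM (VAV3). At 0.0005 μM 5 had an unadjusted p under 0.05, beside 17% of all genes, and DESeq2 called 2, beside 4.65% of all genes. From C1 to C2 edgeR called 0, beside 0.325% of all genes, and DESeq2 0, beside 1.09%. At an unadjusted p under 0.05 there were 6 of the 52, beside 10% of all genes. For the slope edgeR called 3, all lower, or 5.77% beside 3.06%. In treated against untreated libraries 13 were called, 2 higher and 11 lower, or 25.0% beside 24.4% of all genes. Among the proteases that shed ephrins and cleave receptors (8 genes), ADAM17 and ADAM10 were lower at 0.05 μM by -0.53 ± 0.122 and -0.59 ± 0.143 on the log2 scale (edgeR adjusted p = 0.0212 and 0.0268). ADAM17 also fell with dose, at -0.18 ± 0.0424 per 10-fold step, as did NCSTN, a γ-secretase subunit, at -0.17 ± 0.0433 (edgeR adjusted p = 0.0310 and 0.0451). Among adaptors and kinases (24 genes), ABL2, a kinase that acts on actin, was lower at 0.05 and 0.5 μM by -0.65 ± 0.151 and -0.77 ± 0.151 (edgeR adjusted p = 0.0215 and 0.0139). RGS3, which links B-type ephrins to G proteins, was lower at 0.005 and 0.5 μM by -0.69 ± 0.148 and -0.72 ± 0.149 (edgeR adjusted p = 0.0273 and 0.0179), and the slope of the adaptor GRB10 was -0.18 ± 0.0373 (edgeR adjusted p = 0.0190). RASA1, a Ras GTPase-activating protein bound by EPHB2, was lower in treated libraries by -0.40 ± 0.0847 (edgeR adjusted p = 0.00280). VAV3, a guanine nucleotide exchange factor, had the lowest p of the pathway genes in that comparison and was higher by 2.45 ± 0.437 (edgeR adjusted p = 0.000862), at condition means of 0.0219 to 0.405 CPM.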

How the data were processed

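Total RNA of 12 cultures was sequenced as paired-end reads. Per the labels and the study's methods, the authors trimmed reads with Trimmomatic 0.39 and FastQC 0.11.9 checks, aligned them to hg19 (GRCh37) with STAR 2.7.5, kept unique alignments and counted reads in exons with Rsubread, so that the deposited tables hold raw whole-number counts per replicate. The 12 files of single samples were checked and hold the same counts as the table. Symbols matched 55665 of 63568 identifiers, and lengths and positions came from GENCODE 44 on GRCh37.

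Counts were scaled by TMM and filtered by filterByExpr on the 6 conditions, which left 25249 genes. Changes were tested two-sided with edgeR 4.0.16 (R 4.3.3, limma 3.58.1) by its robust quasi-likelihood F test, adjusted by Benjamini-Hochberg over all genes tested, and called at an adjusted p under 0.05. Doses and days used a model of all 12 libraries, the slope on log10 dose the 8 treated libraries, and treated against untreated a fit of 8 against 4. SE is the absolute log2 change divided by the square root of F. Log2 CPM used a prior count of 2, and the common biological coefficient of variation was 15.6%. Ratios were tested by exact permutation, whose smallest p was 0.00202 for 8 against 4. With 2 against 2 libraries an exact test cannot go below 0.333, so the model pools the spread across genes and conditions. DESeq2 1.42.0 was an alternative, without the hypothesis weighting of the study. The fits were tested on simulated counts.

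Members and gene lists were chosen with earlier results of these data known. Besides all family genes, text names up to 3 called genes per comparison from the pathway lists, by adjusted p, and the 3 genes most like EFNA1 (also the member with the widest range) and EPHA2. A few items that meet this rule are not reported here. No amino acid sequences were used.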

Additional observations from a re-analysis of the deposited data

Results flagged for a closer look

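Among 24 sets of libraries checked, the treated or untreated libraries of each member and of both ratios, 2 had a library set apart, where chance alone is expected to set apart about 1 in 20. For EFNA4 among the 8 treated libraries, replicate 2 of 0.0005 μM was high at 7.87 CPM, and its gap to the nearest library took a share of 0.636 of the whole range of log2 CPM. For EFNA5 among the 4 untreated libraries, replicate 2 of C1 was low at 23.8 CPM, with a share of 0.838.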

How the results depend on the processing

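The counts of members called against C2 (0 at each dose) moved as follows. With both untreated days as the control they were 1, 1 and 2 at 0.0005, 0.005 and 0.05 μM. Of all genes 8.26%, 13.5% and 17.1% were then called. EFNA1 reversed in this setting to 0.64, 0.48 and 0.26 at 0.005, 0.05 and 0.5 μM on the log2 scale. In the 4 libraries compared alone they were 1, 2 and 2 at 0.0005, 0.05 and 0.5 μM, and 0 from C1 to C2. Without both day 2 libraries, an alternative chosen after seeing the data, they were 1, 1, 3 and 4. Without a count filter the member counts were 1 at 0.005 and 0.05 μM, beside 3.90% and 5.65% of all genes. They were 0 for treated against untreated (beside 11.7%) and 4 over all conditions (beside 14.6%). With offsets for GC content and length they were 1 at 0.05 μM (EFNA1) and 2 at 0.5 μM (EFNA1 and EFNA5), beside 11.7% and 10.8% of all genes. They were 2 for treated against untreated (EPHA2 and EFNA4) and 2 over all conditions, beside 31.5% and 19.7%. DESeq2 gave 2 for the slope and 2 for treated against untreated, beside 6.48% and 28.0% of all genes. Without both lowest dose libraries, also chosen after seeing the data, the slope had 0, beside 0.123% of all genes, and EPHA2 reversed to 0.041. With C2 as the control, treated against untreated had 0, beside 9.74% of all genes. The EFNA1 to EPHA2 ratio then differed by 0.28, and EFNA1 reversed to -0.13, or to -0.086 without both day 2 libraries. RLE kept the treated against untreated count at 1, beside 24.9% of all genes, but called EPHA2 in place of EFNB1.

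Leaving out 1 library gave 0 to 1, 0 to 1, 0 to 3 and 0 to 4 calls with rising dose, 1 to 3 from C1 to C2, 1 to 1 for the slope, 0 to 3 for treated against untreated and 1 to 7 over all conditions. The ratio differences ran from 0.52 to 1.33 (EFNA1 to EPHA2) and 0.06 to 0.21 (EFNB2 to EPHB4). Left out 1 at a time, libraries also turned the sign of EFNA1 at 0.005 μM (-0.25 to 0.019) and of EPHA2 at 0.05 μM (-0.54 to 0.096), from C1 to C2 (-0.45 to 0.61) and for the slope (-0.026 to 0.042), none called in the full set. EFNA1 stayed called in each such fit from C1 to C2 (1.30 to 1.77) and for the slope (-0.28 to -0.22).

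The replicate block raised the treated against untreated count from 1 to 2, adding EPHA2, and moved no other count of members by over 1.5 times, while the slope calls over all genes fell from 773 to 420 and those lower from 516 to 303. Over all genes the counts against C2 (592, 827, 2100 and 1596) ran from 618 to 2624, 814 to 3401, 1973 to 4817 and 1498 to 5033 under the other alternatives, and from 144 to 2552, 85 to 3316, 321 to 4843 and 129 to 5046 with 1 library left out. Those from C1 to C2 (82), for the slope (773), in treated against untreated libraries (6155) and over all conditions (2787) ran from 0 to 390, 31 to 1635, 2460 to 7946 and 2561 to 7149 under the other alternatives, and from 47 to 2682, 123 to 990, 4182 to 7078 and 1430 to 9048 with 1 library left out. The labels do not say whether replicate numbers pair the libraries, and the values did not settle it. Between conditions, deviations of same-numbered libraries correlated at -0.60 to 0.68, with a median of 0.13 and 8 of 15 pairs over 0.1. The median change over all genes moved by 0.274 without a filter for treated against untreated and by -0.111 and -0.112 with the offsets at 0.005 and 0.5 μM. Where no cause is given, the cause was not tested. The lowest count of any member was 32, for EPHB3.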
